A study of Mus musculus with 24 samples.

Results

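The genes described here make, carry and sense cholesterol. They are a list of 29 genes: 19 enzymes that lead from acetyl-CoA units through mevalonate and squalene to cholesterol, 5 genes of the SREBP control system (Srebf1, Srebf2, Scap, Insig1 and Insig2) and 5 genes of sterol carriage, lysosomal export and LXR sensing (Stard4, Npc1, Npc2, Nr1h2 and Mylip). They were taken by symbol from the count table of the second sequencing batch and by the same Ensembl identifiers from that of the first batch, out of 55471 genes listed in batch 1 and 13915 in batch 2. Of the 29, 28 were in both tables and passed the filter on low counts. Mylip, a ubiquitin ligase that LXR induces and that lowers lipoprotein uptake, was present in the batch 1 table alone, with 0 to 3 reads per library, and was not tested.

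RNA was sequenced from 4 derivatives of EO771, a mouse mammary carcinoma line spelled E0771 in some labels, with 4 technical replicate libraries for each derivative in a batch. X2 carried the empty retroviral vector PLNCX2 with tdTomato. CCR7 carried Ccr7, the receptor of lymph node chemokines, in the same vector, and was sorted as PDPN-negative. CCR7-PDPN was sorted from CCR7 cells for high podoplanin (PDPN), a mucin-type glycoprotein that had appeared without transduction, and X2-PDPN was sorted for PDPN from X2 cells. All were sorted populations that had not been cloned and grew in RPMI with 10% FBS. Batch 1 held X2, CCR7 and CCR7-PDPN, batch 2 held X2, X2-PDPN and CCR7-PDPN, and every comparison was made within a batch. Because each derivative was one cell population, p-values measure only the spread between its libraries. In such bulk RNA, fewer cells expressing a gene and less of its RNA per cell cannot be told apart.

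Cells make cholesterol in the endoplasmic reticulum and cytosol from acetyl-CoA, and nearly all enzyme genes of the route are targets of SREBP2, the product of Srebf2. When sterols in the endoplasmic reticulum run low, SCAP escorts SREBP to the Golgi, where the site-1 and site-2 proteases release its transcription factor domain. When sterols are plentiful, INSIG proteins hold SCAP back, and oxysterols activate LXR, which turns on genes of sterol efflux. Tumour cells use the route for membranes, and its early part also feeds prenyl groups, dolichol and ubiquinone.

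Libraries held 22275468 to 33395418 counted reads in batch 1 and 22788542 to 35721027 in batch 2. The common coefficient of variation that edgeR estimated over all genes tested was 0.0471 in batch 1 and 0.0322 in batch 2. It reflects the spread between technical replicate libraries, and each test also used a spread estimated for its own gene. Ccr7 averaged 5311 to 5911 TPM (transcripts per 1e+06, a level per length) in the lines that carried it and at most 1.25 TPM elsewhere, and Pdpn averaged 49.9 to 52.9 TPM in the PDPN-sorted lines against 0.853 TPM in CCR7 and at most 0.330 TPM in X2, so both labels held. Of 4 markers listed for a mammary tumour line, the keratin Krt8 and the mesenchymal marker Vim were abundant in every group. The epithelial markers Krt18 and Epcam averaged at most 0.55 and 0.054 TPM in batch 1 and were not in the batch 2 table. Of 14 markers of other cell types, Cd68 alone averaged 1 TPM or more, the other 13 summed to 0.887 to 1.70 TPM in any batch 1 library, and Cd3e and Lep had no read in any of them. A library stood apart: CCR7 replicate 1 was above the other 3 CCR7 libraries for 17 of the 19 enzymes and below them for 3 of the 28 genes tested, and held 20 Pdpn reads against 7 to 12. It also differed from them over all genes with enough reads. The chi-square per degree of freedom was 13.5 to 22.5 for its pairs and 2.68 to 8.48 among the other 3. For these rank counts and those for X2 that follow, the share of all genes was not counted. In X2, replicate 4 was below the other 3 libraries for 14 of the 19 enzymes in batch 1 and 15 in batch 2, and replicate 3 above them for 10 and 14. X2 and CCR7-PDPN libraries deviated most like the library of the same replicate number in the other batch in 8 of 8 pairs. The r was 0.068 to 0.386 over 10064 genes, against at most 0.112 for other numbers. For X2 replicate 3 the gap was slight (0.068 against 0.064). The batches are therefore not treated as independent repeats. Fdps, Fdft1, Scap, Hmgcs1 and Tm7sf2 have 12.1 to 26.7% of their exonic bases in common with another annotated gene, on the same strand for Fdps and Tm7sf2 and on the opposite strand for the others, so their counts are less certain.

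Promoter sequence was looked at because most of the enzymes moved together. The 250 bases before the RefSeq start (GRCm38.p6, the build of the count tables) were found for 24 of the 29 genes, in 32 windows. Fdft1, Fdps, Npc1, Sqle and Stard4 had none in the table used. Each window was searched on both strands for a classical sterol response element (SRE, CACCCCAC), an E-box (CACGTG), a GC box (GGGCGG) and the motif named for its letters, the CCAAT box. The sequences that follow belong to genes with the largest changes, read 5′ to 3′ toward the start site, and capitals mark every match or its reverse complement, none of which overlapped in a printed sequence. Bases that fall inside the gene as the count tables place it are left out.
Acat2, chr17:12960748-12960975, minus strand: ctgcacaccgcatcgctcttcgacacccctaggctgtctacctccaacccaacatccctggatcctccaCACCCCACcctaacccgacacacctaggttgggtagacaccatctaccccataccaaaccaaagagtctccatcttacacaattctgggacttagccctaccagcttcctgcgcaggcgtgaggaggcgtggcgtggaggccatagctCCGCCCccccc
Hmgcs1, chr13:119690101-119690350, plus strand: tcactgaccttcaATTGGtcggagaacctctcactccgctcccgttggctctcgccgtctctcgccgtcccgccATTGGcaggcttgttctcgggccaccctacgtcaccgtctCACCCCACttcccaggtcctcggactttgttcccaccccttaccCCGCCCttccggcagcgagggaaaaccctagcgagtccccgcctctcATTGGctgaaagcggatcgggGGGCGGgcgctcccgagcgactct
Mvd, chr8:122443423-122443672, minus strand: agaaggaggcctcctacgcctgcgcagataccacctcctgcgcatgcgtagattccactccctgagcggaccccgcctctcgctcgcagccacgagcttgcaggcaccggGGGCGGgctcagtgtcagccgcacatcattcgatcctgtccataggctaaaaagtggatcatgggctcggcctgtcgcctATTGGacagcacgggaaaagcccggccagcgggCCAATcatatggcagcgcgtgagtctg
Lss, chr10:76531355-76531587, plus strand: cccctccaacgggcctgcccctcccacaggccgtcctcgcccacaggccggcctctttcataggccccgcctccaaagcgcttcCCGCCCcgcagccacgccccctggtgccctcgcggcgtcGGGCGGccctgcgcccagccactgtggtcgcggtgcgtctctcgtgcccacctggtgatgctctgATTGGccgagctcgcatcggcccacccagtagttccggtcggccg
Hsd17b7, chr1:169969242-169969455, minus strand: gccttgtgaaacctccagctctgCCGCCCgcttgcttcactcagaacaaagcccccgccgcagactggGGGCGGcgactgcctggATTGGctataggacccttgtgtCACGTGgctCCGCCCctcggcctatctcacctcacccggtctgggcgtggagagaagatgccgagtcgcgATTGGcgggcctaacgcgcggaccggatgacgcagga

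The SRE letters were in 2 of the 32 windows (6.25%), those of Acat2 and Hmgcs1, against 2.58% of all 32851 windows in the table. CCAAT boxes were in 22 of the 32 windows (68.8% against 33.8%) and GC boxes in 24 (75% against 32.7%). E-boxes were in 5 (15.6% against 6.02%): Dhcr7, Hsd17b7, Insig1, Sc5d and Scap. CCAAT matches were also present for Ebp, Ggps1 and Insig2, which did not move with the rest of the list below. These are counts of letters in one window per start site and say nothing of binding.

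The PDPN-sorted cells of both backgrounds held more mRNA of almost the whole synthetic route. In CCR7-PDPN against CCR7, 24 of the 28 genes rose, where 20.9% of all 13261 genes tested rose, with a median log2 fold change of 0.56. The comparison of X2-PDPN with X2 had 22 that rose, where 28.2% of 13314 genes did, and 3 fell, where 28.5% did, with a median of 0.75. The median over all genes was 0.00 in each. Calls came from the quasi-likelihood test of edgeR, with p-values adjusted by Benjamini-Hochberg over all genes tested and a threshold of 0.05. No gene of the list fell in CCR7-PDPN against CCR7 by edgeR, where 20.7% of all genes fell. Npc1 was the only one lower there at an unadjusted p under 0.05, and DESeq2 called 1 fall. All 22 genes that rose in X2-PDPN were among the 24 that rose in CCR7-PDPN, and these comparisons have no library in common. With 24 of the 28 rising in CCR7-PDPN, most of the 22 would be among them in any case. The share of all genes that rose in both comparisons was not counted. Scap and Npc2 rose in CCR7-PDPN alone by this threshold; the difference between backgrounds did not pass the test for Scap (adjusted p = 0.11) and did for Npc2. Every library of the sorted cells was above every library of its parent for 23 genes in CCR7-PDPN (15.4% of all genes) and 21 in X2-PDPN (23.9%). Above a log2 fold change of 1, the counts were 3 genes (0.664% of all genes) in CCR7-PDPN and 2 (3.51%) in X2-PDPN.

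**Figure D1:**
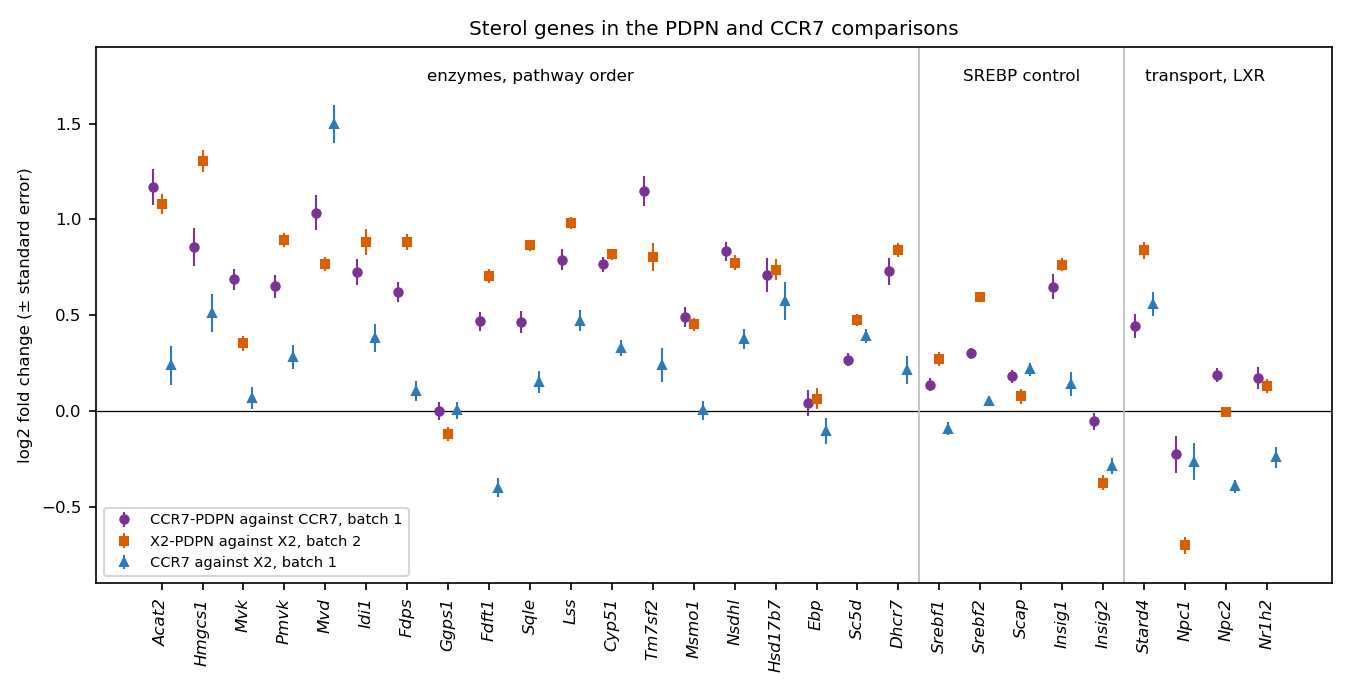
Log2 fold change and its standard error (y axis) for the 28 tested genes in pathway order (x axis) in CCR7-PDPN against CCR7 (circles), X2-PDPN against X2 (squares) and CCR7 against X2 (triangles), 4 libraries per group. The circles and squares of 17 of the 19 enzymes lie above 0, and Ggps1 and Ebp lie near 0 in each comparison.

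Among the enzymes, 17 of 19 rose in each PDPN comparison, with medians of 0.71 and 0.80. The summed level of the 19 was 1034 ± 41.7 TPM in X2 and 2158 ± 30.9 TPM in CCR7-PDPN of batch 1 (SD, n = 4), with CCR7 at 1333 ± 124 TPM. In batch 2 it was 1042 ± 48.9 TPM in X2, 1791 ± 27.5 TPM in X2-PDPN and 2187 ± 19.8 TPM in CCR7-PDPN. Most of the gap between the last pair came from Mvd, at 125 ± 1.92 and 430 ± 12.5 TPM, whose neighbours on the chromosome also differed (described below). The sum of the other 18 enzymes was 1667 ± 27.3 TPM in X2-PDPN and 1756 ± 9.77 TPM in CCR7-PDPN of batch 2, still without overlap. No PDPN-sorted library came down to any library of X2 or CCR7, whose highest, at 1516 TPM, was CCR7 replicate 1 against 1251 to 1304 TPM in the other 3. Without that library, 24 genes of the list still rose in CCR7-PDPN against CCR7, 1 fell (Npc1), and the median was 0.61.

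Acat2, the cytosolic thiolase that joins acetyl-CoA units at the head of the route, showed the largest rise in CCR7-PDPN against CCR7. Its levels there were 96.8, 98.7, 92.1 and 85.0 TPM against 51.8, 39.6, 38.4 and 38.0 TPM in CCR7. In X2-PDPN they were 73.0, 72.4, 77.0 and 78.1 TPM against 37.7, 34.2, 38.7 and 31.0 TPM in X2 of the same batch. The groups were well apart in both batches. The log2 fold changes were 1.17 ± 0.09 (SE; adjusted p = 9.8e-07, edgeR) and 1.08 ± 0.05 (adjusted p = 3.5e-18, edgeR).

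Hmgcs1, the HMG-CoA synthase of the next step, showed the largest rise in X2-PDPN. It stood at 251, 237, 240 and 257 TPM against 105, 98.0, 107 and 87.8 TPM in X2 of batch 2. In batch 1 it stood at 243, 256, 236 and 255 TPM in CCR7-PDPN, 169, 136, 123 and 129 TPM in CCR7, and 101, 97.9, 104 and 87.9 TPM in X2. The CCR7 libraries thus lay between those of X2 and the PDPN-sorted cells without touching either. Without CCR7 the sorted cells exceeded their parent by 1.30 ± 0.06 (adjusted p = 1.4e-09, edgeR), and with CCR7 by 0.86 ± 0.10 (adjusted p = 5.8e-05, edgeR).

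The kinases and the decarboxylase that turn mevalonate into isopentenyl diphosphate all rose in both backgrounds. Mvk, mevalonate kinase, rose by 0.69 in CCR7-PDPN and 0.35 in X2-PDPN, and Pmvk, phosphomevalonate kinase, by 0.65 and 0.89. Mvd, mevalonate diphosphate decarboxylase, was at 126, 126, 122 and 125 TPM in X2-PDPN and at 74.4, 72.9, 72.6 and 72.1 TPM in X2 of batch 2. It was at 413, 443, 423 and 427 TPM in CCR7-PDPN of batch 1 and at 259, 193, 201 and 194 TPM in CCR7. No libraries overlapped between the groups compared. These differences were 0.77 ± 0.04 and 1.03 ± 0.09 (adjusted p = 1.5e-22 and 6.7e-06, edgeR). Idi1, the isomerase that makes dimethylallyl diphosphate, rose by 0.73 and 0.88, and Fdps, farnesyl diphosphate synthase, by 0.62 and 0.88.

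The route branches at farnesyl diphosphate, and the enzymes on either side of the branch differed. Ggps1 makes geranylgeranyl diphosphate for protein prenylation, outside the sterol arm. It differed by 0.00 ± 0.05 in CCR7-PDPN against CCR7 (adjusted p = 0.98, edgeR) and fell by 0.12 in X2-PDPN against X2. Fdft1, squalene synthase and the first committed enzyme of the sterol arm, rose by 0.47 ± 0.05 and 0.70 ± 0.03. Sqle, the epoxidase that follows, rose by 0.46 ± 0.06 and 0.87 ± 0.03. Its libraries were at 174, 172, 166 and 166 TPM in CCR7-PDPN of batch 1 against 143, 126, 117 and 115 TPM in CCR7. In batch 2 they were at 211, 207, 202 and 211 TPM in X2-PDPN against 115, 115, 119 and 106 TPM in X2, with no overlap in either batch.

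Lss, lanosterol synthase, closes the sterol rings. It was at 72.0, 71.3, 73.0 and 67.8 TPM in CCR7-PDPN of batch 1 against 47.5, 40.5, 39.7 and 39.5 TPM in CCR7. In batch 2 it was at 59.9, 56.9, 60.9 and 59.5 TPM in X2-PDPN against 30.4, 30.1, 31.3 and 28.1 TPM in X2. Every PDPN-sorted library was above every library it was compared with. The rises were 0.79 ± 0.05 (adjusted p = 6.2e-09, edgeR) and 0.98 ± 0.03 (adjusted p = 1.5e-28, edgeR).

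Of the enzymes that turn lanosterol into cholesterol, 7 of the 8 listed rose in both backgrounds. Tm7sf2, a sterol reductase of this stretch and the least abundant enzyme of the list in X2, was at 15.2, 16.1, 17.5 and 13.7 TPM in CCR7-PDPN against 7.47, 6.95, 7.77 and 6.23 TPM in CCR7. It was at 9.94, 10.4, 9.73 and 9.74 TPM in X2-PDPN against 5.50, 5.26, 5.83 and 6.14 TPM in X2. The ranges were separate in both, with rises of 1.15 ± 0.08 and 0.80 ± 0.07 (adjusted p = 2.9e-10 and 8.7e-13, edgeR). Cyp51, the lanosterol demethylase, rose by 0.76 and 0.82, Nsdhl, which removes carbon from the ring, by 0.83 and 0.77, and Hsd17b7, the ketosterol reductase of the same complex, by 0.71 and 0.74. Msmo1, the methyl sterol oxidase, rose by 0.49 and 0.45, Sc5d, a desaturase, by 0.27 and 0.47, and Dhcr7, a terminal reductase, by 0.73 and 0.84. Ebp, the sterol isomerase between these steps, was the exception. It ran from 26.7 to 30.7 TPM in CCR7-PDPN of batch 1 against 26.9 to 31.4 TPM in CCR7, and from 32.1 to 36.3 TPM in X2-PDPN against 30.7 to 34.3 TPM in X2. Those groups overlapped, and the differences were 0.04 ± 0.07 and 0.06 ± 0.05 (adjusted p = 0.68 and 0.33, edgeR).

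**Figure D2:**
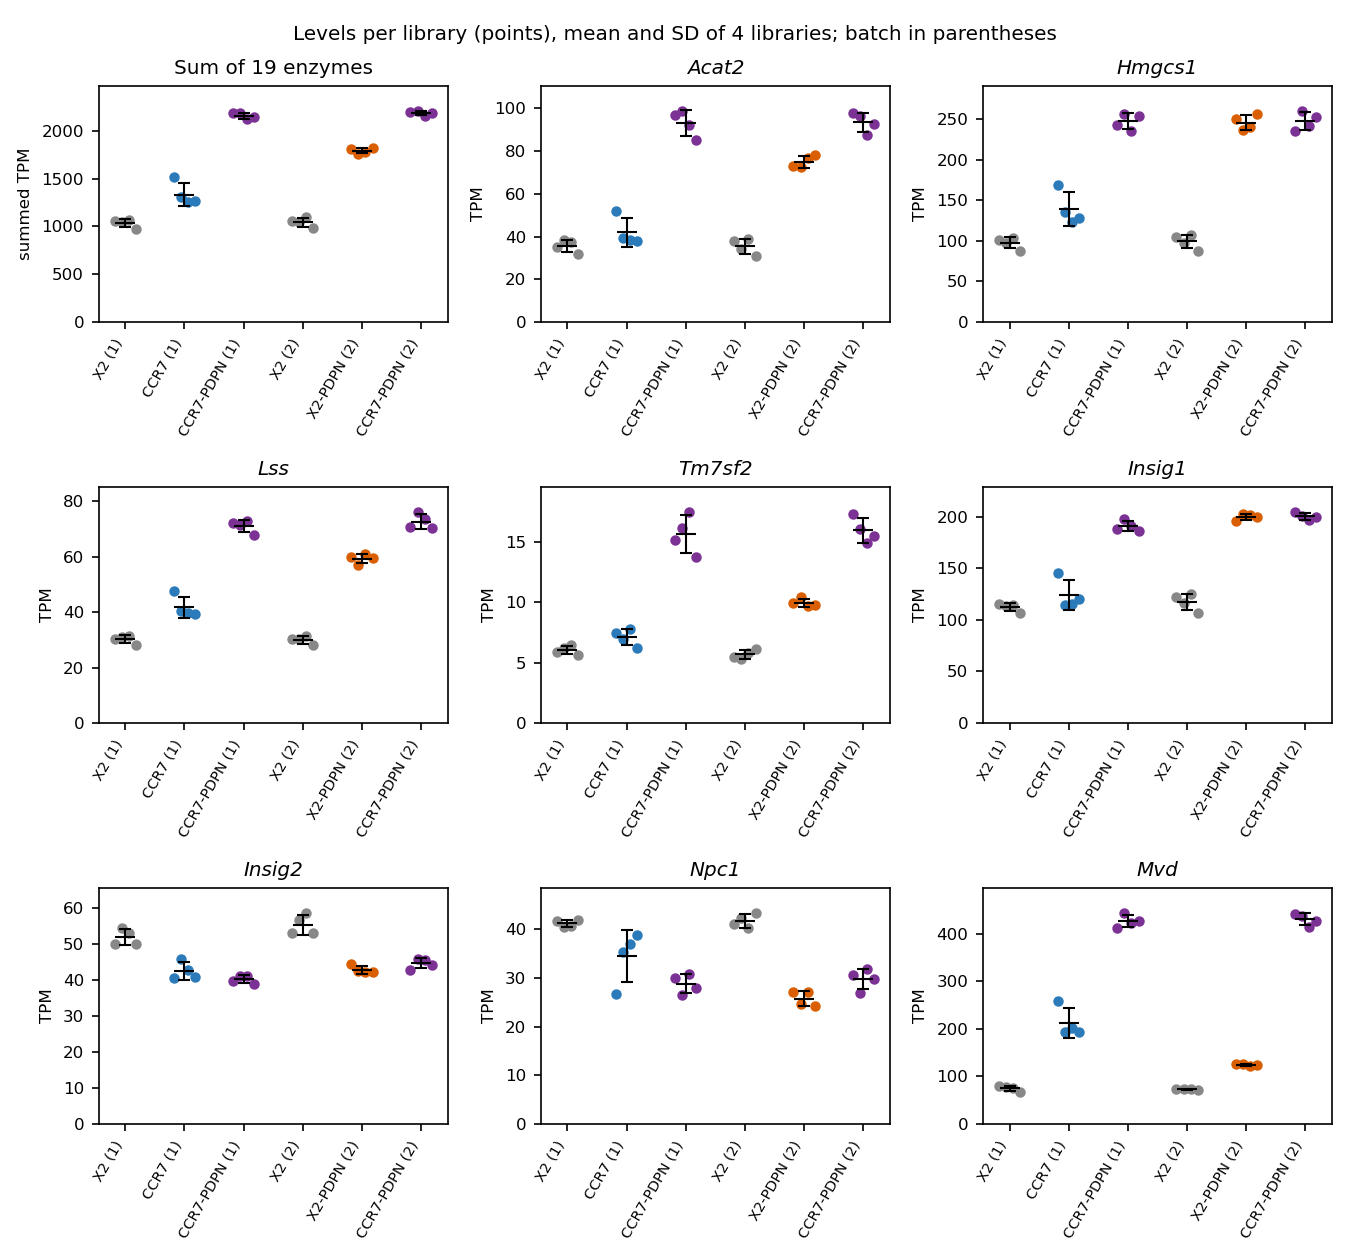
Level in TPM (y axis, from 0) in each of the 24 libraries (points), with the mean and SD of 4 libraries (bars), by derivative and batch (x axis), for the sum of the 19 enzymes and for 8 genes. CCR7 replicate 1 is the highest CCR7 point of the enzyme sum, at 1516 TPM, and the lowest CCR7 point of Npc1, at 26.8 TPM.

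In the SREBP control system, the factor and its feedback genes did not move as one. Srebf2, which encodes the main sterol-responsive SREBP, rose by 0.30 ± 0.03 in CCR7-PDPN against CCR7 and by 0.59 ± 0.03 in X2-PDPN against X2. Its libraries were at 365, 373, 358 and 350 TPM in CCR7-PDPN of batch 1, 301, 301, 293 and 301 TPM in CCR7, 443, 424, 444 and 445 TPM in X2-PDPN, and 296, 293, 294 and 276 TPM in X2 of batch 2. The groups did not overlap. Srebf2 and Sqle both lie on chromosome 15, and the figure of neighbours below sets each beside the genes around it in X2-PDPN against X2. The part of those regions in the rises of Srebf2 and Sqle was not tested. Srebf1, which encodes the SREBP more tied to fatty acid genes, rose by 0.14 and 0.27. Scap, the escort, rose by 0.18 ± 0.03 in CCR7-PDPN (adjusted p = 2.5e-04, edgeR) and differed by 0.08 ± 0.04 in X2-PDPN (adjusted p = 0.12, edgeR).

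The pair of INSIG genes diverged. Insig1, itself an SREBP target, was at 188, 198, 191 and 187 TPM in CCR7-PDPN of batch 1 against 145, 114, 116 and 120 TPM in CCR7. It was at 196, 203, 202 and 200 TPM in X2-PDPN against 122, 116, 125 and 107 TPM in X2. Insig1 thus rose, by 0.65 ± 0.06 and 0.76 ± 0.03 (adjusted p = 2.3e-06 and 5.6e-23, edgeR). Insig2, whose transcription is not raised by SREBP, was at 44.5, 42.6, 42.2 and 42.3 TPM in X2-PDPN against 53.1, 56.9, 58.6 and 53.1 TPM in X2, and fell by 0.38 ± 0.04 (adjusted p = 2.9e-11, edgeR). In CCR7-PDPN of batch 1 it was at 39.7, 41.2, 41.1 and 38.9 TPM against 40.7, 45.9, 42.8 and 40.8 TPM in CCR7, with overlap and a difference of -0.06 ± 0.04 (adjusted p = 0.34, edgeR).

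Among the genes of sterol carriage and export, Stard4 followed the enzymes and Npc1 did not. Stard4, a cytosolic sterol carrier, was at 85.9, 83.0, 84.8 and 87.7 TPM in X2-PDPN against 50.5, 47.0, 50.8 and 42.0 TPM in X2, and rose by 0.84 ± 0.05. It rose by 0.44 ± 0.06 in CCR7-PDPN against CCR7. Npc1, the membrane protein that exports cholesterol from late endosomes and lysosomes, was at 27.0, 24.6, 27.2 and 24.2 TPM in X2-PDPN against 41.1, 42.4, 40.2 and 43.3 TPM in X2. It fell by 0.70 ± 0.04 with no overlap (adjusted p = 9.0e-13, edgeR), the largest fall of the list in the PDPN comparisons, while the 27 tested genes within 5 Mb had a median of -0.31. In CCR7-PDPN of batch 1 Npc1 was at 30.0, 26.6, 30.9 and 27.9 TPM against 26.8, 35.3, 37.0 and 38.8 TPM in CCR7, a difference of -0.23 ± 0.10 (adjusted p = 0.084, edgeR). CCR7 replicate 1 was the lowest of those libraries but for CCR7-PDPN replicate 2, and without it the fall passed the test at -0.33. Npc2, the soluble partner of Npc1 in the lysosome, was at 305, 300, 300 and 301 TPM in X2-PDPN against 300, 299, 300 and 305 TPM in X2, a difference of 0.00 ± 0.03, and rose by 0.19 in CCR7-PDPN against CCR7. Nr1h2, which encodes LXR beta, rose by 0.17 and 0.13.

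CCR7 alone was accompanied by smaller and mixed differences. In CCR7 against X2, 14 of the 28 genes rose, where 24% of all genes did, and 6 fell, where 25.2% did, with a median log2 fold change of 0.18. Among the enzymes 12 rose and Fdft1 fell. The shift depended on the library that stood apart: without CCR7 replicate 1, 12 genes rose, 6 fell and the median was 0.095. Without X2 replicate 4 of batch 1, the lowest X2 library for most enzymes, 11 rose, 4 fell and the median was 0.15. That library also held the most Pdpn reads of its group, and what part this had in the difference was not tested. Sqle, Dhcr7, Tm7sf2, Srebf1 and Npc1 each lost their call when at least 4 of the 12 batch 1 libraries were left out in turn, so those calls lay near the threshold. The other 11 rises and 4 falls kept their call in each of these fits. Besides Mvd, those rises were Hsd17b7 (0.57 ± 0.10), Stard4 (0.56 ± 0.06), Hmgcs1 (0.51 ± 0.10), Lss (0.47), Sc5d (0.39), Idi1 (0.38), Nsdhl (0.37), Cyp51 (0.33), Pmvk (0.28) and Scap (0.22). Hsd17b7 was at 19.5, 16.3, 14.9 and 15.9 TPM in CCR7 against 11.0, 11.2, 13.1 and 9.38 TPM in X2, with no overlap. Stard4 was at 77.8, 69.5, 64.1 and 63.6 TPM in CCR7 against 46.5, 48.6, 48.1 and 43.8 TPM in X2, with no overlap. Among the falls, Insig2 fell by 0.29 ± 0.04 and Nr1h2 by 0.24 ± 0.06. Npc2, at 219, 234, 242 and 237 TPM in CCR7 against 318, 298, 293 and 313 TPM in X2, fell by 0.39 ± 0.03 with no overlap.

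Mvd stood far above the other enzymes in every comparison of a CCR7 line with an X2 line. It was at 79.3, 77.6, 76.0 and 67.0 TPM in X2 of batch 1 against 259, 193, 201 and 194 TPM in CCR7, a rise of 1.50 ± 0.10 (adjusted p = 2.4e-07, edgeR). Genes around it moved too. Over the other tested genes that start within 5 Mb of Mvd (chr8:122433601-122443422), 124 in batch 1 and 118 in batch 2, the median was 0.83 in CCR7 against X2, and it was 0.86 to 0.88 in CCR7-PDPN against X2 and 1.02 in CCR7-PDPN against X2-PDPN. It was 0.05 in CCR7-PDPN against CCR7 and -0.18 in X2-PDPN against X2. Mbtps1, the site-1 protease gene, lies on the same chromosome and rose by 0.93 in CCR7 against X2, beside a neighbour median of 0.97. Fdft1 (chr14:63145150-63179578) fell by 0.40 ± 0.05 in CCR7 against X2, from 57.9, 55.9, 57.6 and 53.3 TPM to 47.3, 40.3, 42.0 and 40.5 TPM, beside a neighbour median of -0.44 over 48 genes. The neighbour medians were 0.41 for Scap, which itself rose by 0.22, and -0.35 for Msmo1, which differed by 0.00. The part of the surrounding regions in these values was not tested.

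**Figure D3:**
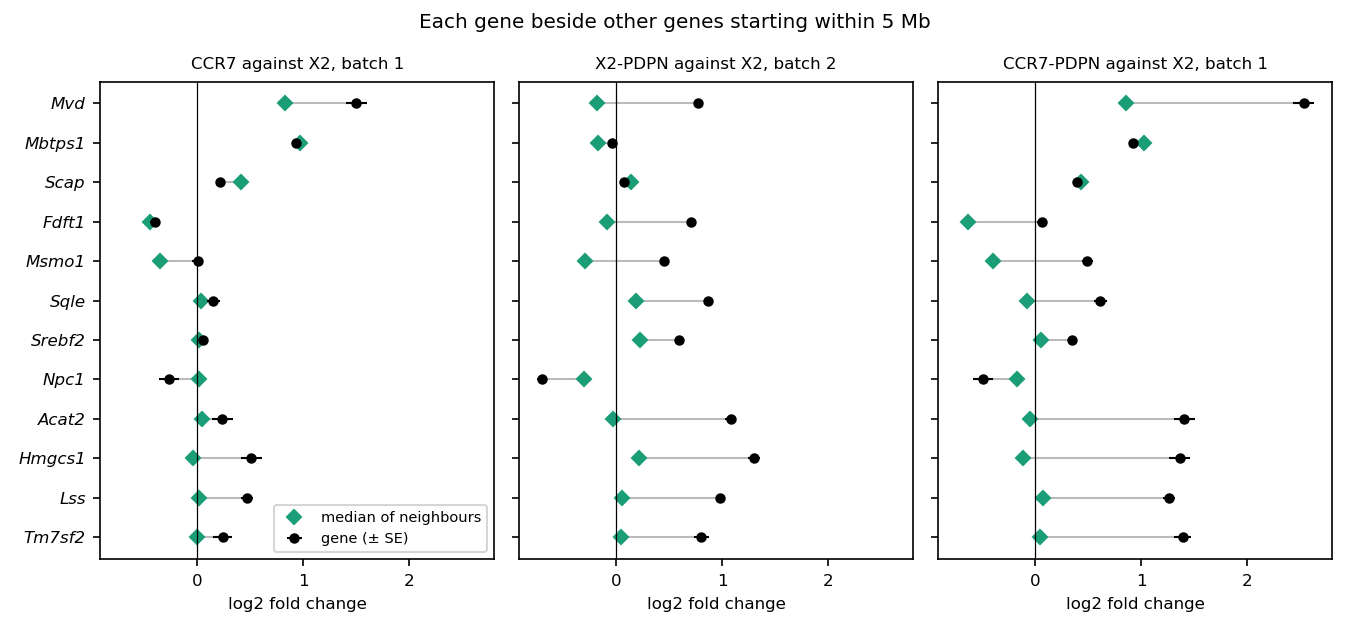
Log2 fold change of 12 genes with its standard error (circles) beside the median of the other tested genes that start within 5 Mb (diamonds), in 3 comparisons. For Mvd in CCR7 against X2 the gene stands at 1.50 and its neighbours at 0.83, Mbtps1 and its neighbours lie at 0.93 and 0.97, and the neighbours of Acat2, Lss and Tm7sf2 lie near 0.

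CCR7-PDPN differed more from X2 than CCR7 did. In CCR7-PDPN against X2, 20 genes rose and 3 fell (Npc1, Npc2 and Insig2) in each batch, where 30.3% and 32% of all genes rose and 30.6% and 32.8% fell. The medians were 0.74 and 0.75, and 10 genes were above a log2 fold change of 1 in each batch, where 4.09% and 3.96% of all genes were. Of those 10, 9 were enzymes and the other was Stard4. Mvd led with 2.53 ± 0.10 in batch 1 and 2.58 ± 0.03 in batch 2, its libraries lying at 442, 438, 414 and 427 TPM in CCR7-PDPN of batch 2 against 72.1 to 74.4 TPM in X2. Acat2 came next in batch 1 (1.41, then Tm7sf2 with 1.39) and Tm7sf2 in batch 2 (1.50, then Acat2 with 1.42). All 28 calls were alike in the batches and the largest gap between them was 0.11, for Tm7sf2, and since same-numbered libraries deviated together across the batches, this is not counted as an independent repeat. Fdft1 differed by 0.07 ± 0.05 and 0.06 ± 0.04 and did not pass the test, beside neighbour medians of -0.63 and -0.62.

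CCR7-PDPN against X2-PDPN compared the PDPN-sorted cells with and without CCR7. Here 15 genes rose, where 31.2% of all genes did, and 8 fell, where 32% did, and the median was 0.10. Mvd again differed most, by 1.81 ± 0.03 (adjusted p = 5.6e-39, edgeR), followed by Tm7sf2 at 0.70 ± 0.06. Fdft1, at 58.3, 54.2, 58.0 and 57.8 TPM in CCR7-PDPN against 92.2, 90.5, 88.0 and 92.9 TPM in X2-PDPN, fell by 0.65 ± 0.03 (adjusted p = 1.5e-20, edgeR) with no overlap. Its 51 tested neighbours had a median of -0.55. Sqle, Fdps, Ebp, Srebf1, Srebf2, Npc2 and Nr1h2 were lower in CCR7-PDPN as well, by 0.15 to 0.26. Hmgcs1 and Insig1 differed by 0.04 and 0.03 and did not pass the test.

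The size of the PDPN difference itself was compared between backgrounds, as CCR7-PDPN minus CCR7 in batch 1 less X2-PDPN minus X2 in batch 2. Background, batch and sort changed together here and cannot be told apart. Of the 28 genes, 6 had a larger value with CCR7, where 20.3% of 13690 genes did, and 10 a smaller value, where 20.5% did, with a median of -0.04. Among the enzymes Mvk (0.34 ± 0.07), Tm7sf2 (0.35 ± 0.11) and Mvd (0.27 ± 0.10) were the larger ones. Hmgcs1 (-0.44 ± 0.12) and Sqle (-0.40 ± 0.07) led the smaller ones, and Stard4 (-0.39 ± 0.09) and Srebf2 (-0.29 ± 0.04) were also smaller. Npc1 had the greatest difference, 0.48 ± 0.11 (adjusted p = 0.0023, edgeR), its fall being 0.70 without CCR7 and its value -0.23, not past the test, with CCR7. That rank rested on CCR7 replicate 1, without which Npc1 differed by 0.37 and Mvk by 0.41. The neighbour medians of this quantity were -0.18 for Hmgcs1, -0.23 for Sqle and -0.18 for Srebf2. Without CCR7 replicate 1, 7 genes were larger, 10 were smaller and the median was 0.00. The call for Mvd was lost in 17 of 24 fits that left out a library.

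Genes next to the route were taken from further lists. Of 13 SREBP targets of fatty acid synthesis, 9 rose and 1 fell in CCR7-PDPN against CCR7 (median 0.16), where 20.9% of all genes rose and 20.7% fell. In X2-PDPN against X2, 12 rose (median 0.34), where 28.2% of all genes did. In CCR7 against X2, 9 rose and 2 fell (median 0.17), where 24% and 25.2% of all genes did. Acss2, which makes cytosolic acetyl-CoA from acetate, was at 12.3, 12.4, 12.4 and 12.2 TPM in X2-PDPN against 5.58, 5.22, 5.05 and 4.97 TPM in X2. It rose by 1.24 ± 0.05 there (adjusted p = 8.6e-25, edgeR) and by 0.73 in CCR7-PDPN against CCR7, and fell by 0.35 in CCR7 against X2, all without overlap. The PDPN difference was smaller with CCR7 for 9 of the 13 and larger for 0 by the adjusted edgeR test, where 20.5% and 20.3% of all genes were, the most for Elovl6, a fatty acid elongase, at -0.64 ± 0.05. Elovl5, another elongase, had the largest rise of this list in CCR7 against X2, 0.78.

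Of 8 genes that process SREBP or turn over proteins of the pathway, 3 fell in CCR7-PDPN against CCR7, where 20.7% of all genes did, and 6 fell and 1 rose in X2-PDPN against X2, where 28.5% and 28.2% did. In CCR7 against X2, 4 fell, where 25.2% of all genes did, and Mbtps1, described above with its neighbours, rose. Paqr3, a Golgi protein that tethers SCAP and SREBP, fell by 0.80 ± 0.15 and 0.47 ± 0.07 in the PDPN comparisons and by 1.07 ± 0.15 in CCR7-PDPN against X2 of batch 1. It was low, at 2.40 to 3.40 TPM in CCR7-PDPN against 5.40 to 7.40 TPM in X2. Of 13 genes of the non-sterol branches (prenyl transferases, dolichol and ubiquinone synthesis), 2 rose and 5 fell in CCR7-PDPN, and 4 rose and 8 fell in X2-PDPN, with medians of -0.10 and -0.17, beside the same shares of all genes (20.9% and 20.7%, then 28.2% and 28.5%). Fntb, a farnesyltransferase subunit, rose the most in each (0.21 and 0.25), and Pggt1b, a prenyl transferase subunit, fell the most in CCR7-PDPN, by 0.33. In CCR7 against X2, 1 of the 13 rose and 2 fell, where 24% and 25.2% of all genes did, led by Rabggta, a subunit of the transferase that prenylates Rab proteins, which fell by 0.72.

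Of 16 other genes of sterol handling, 11 were tested, and 2 rose and 5 fell in CCR7-PDPN against CCR7, 2 rose and 4 fell in X2-PDPN against X2, and 2 rose and 4 fell in CCR7 against X2. Of all genes, 20.9% rose and 20.7% fell in the first comparison, 28.2% and 28.5% in the second, and 24% and 25.2% in the last, so the shares of this list that rose were near or below those of all genes. The change of greatest size was in Lipa, lysosomal acid lipase, which frees cholesterol from the esters of ingested lipoproteins. Lipa was at 13.2, 12.3, 11.9 and 13.1 TPM in X2, 4.90, 5.10, 5.31 and 5.07 TPM in CCR7, and 1.84, 2.08, 2.17 and 2.47 TPM in CCR7-PDPN of batch 1. In batch 2 it was at 12.6, 13.1, 13.0 and 13.3 TPM in X2 and 5.66, 5.45, 5.55 and 6.31 TPM in X2-PDPN. No groups overlapped. Lipa fell by 1.23 ± 0.09 in CCR7-PDPN against CCR7, by 1.19 ± 0.06 in X2-PDPN against X2 and by 1.31 ± 0.07 in CCR7 against X2 (adjusted p = 3.9e-10, 1.9e-21 and 6.9e-13, edgeR). Its neighbour medians were -0.02, -0.03 and -0.04, and its PDPN difference with and without CCR7 differed by -0.04 (adjusted p = 0.80, edgeR). Cd68, a lysosomal glycoprotein used above as a macrophage marker, fell in the same 3 comparisons, by 0.82, 1.11 and 1.51. The summed level of the 14 markers of other cell types went from 133 to 157 TPM in X2 to 43.1 to 58.6 TPM in CCR7 and 25.4 to 33.8 TPM in CCR7-PDPN, almost all of it Cd68, and its part in the result for Lipa was not tested. Abcg1, a sterol efflux transporter induced by LXR and picked here after its values were seen, was at 55.7 to 61.3 TPM in X2, 38.5 to 43.2 TPM in CCR7 and 27.4 to 30.1 TPM in CCR7-PDPN. It fell by 0.48 in CCR7 against X2 and by 0.47 in CCR7-PDPN against CCR7, and differed by -0.07 in X2-PDPN against X2 (adjusted p = 0.055, edgeR). Hsd3b7, an enzyme of bile acid synthesis with few reads, fell by 1.11 ± 0.30 in X2-PDPN. Gramd1b, a carrier of cholesterol from the plasma membrane to the endoplasmic reticulum, rose by 0.40 in X2-PDPN against X2 and by 0.48 in CCR7 against X2, and fell by 0.31 in CCR7-PDPN against CCR7. Its PDPN difference with CCR7 less that without CCR7 was -0.70 ± 0.07 (adjusted p = 1.3e-10, edgeR), the most negative such value of these 11 genes.

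**Figure D4:**
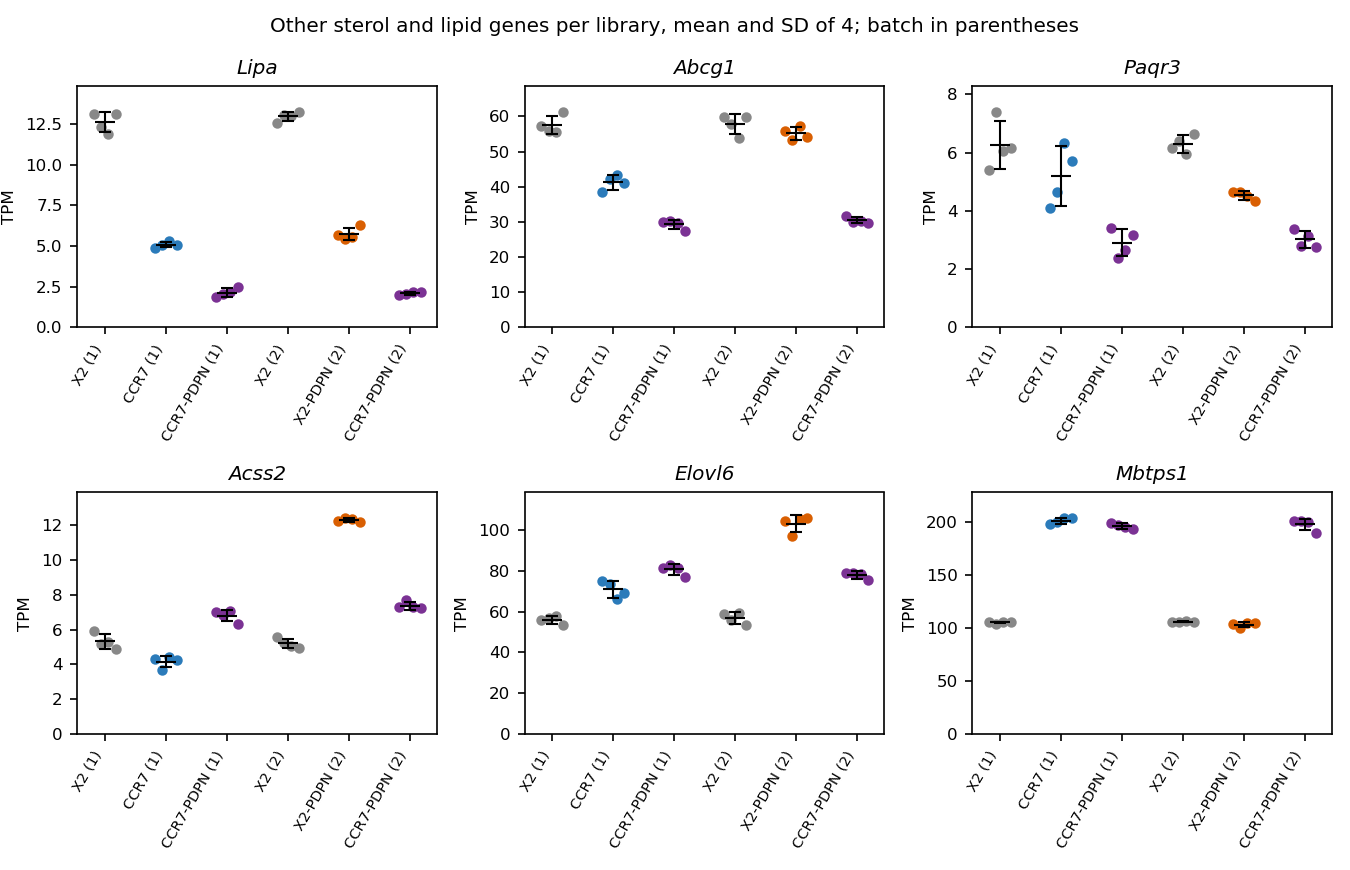
Level in TPM (y axis, from 0) in each library (points), with the mean and SD of 4 libraries (bars), by derivative and batch (x axis), for 6 genes outside the list. Lipa is highest in X2, lower in CCR7 and X2-PDPN and lowest in CCR7-PDPN, and Mbtps1 is at about 200 TPM in the lines with CCR7 and near 105 TPM in those without.

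Proliferation genes changed less. Of 12, 8 rose in CCR7-PDPN against CCR7 with a median of 0.11, 9 rose in X2-PDPN against X2 with a median of 0.13, and 2 fell in CCR7 against X2. Of all genes 20.9% and 28.2% rose in the PDPN comparisons and 25.2% fell in CCR7 against X2. Mki67 rose the most, by 0.68 in X2-PDPN, and differed by -0.18 in CCR7-PDPN (adjusted p = 0.39, edgeR).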

How the data were processed

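The labels gave 24 libraries of stranded mRNA (75 bp single-end reads) in 2 batches, with groups and replicate numbers from the sample titles. The authors deposited 2 tables of raw read counts per Ensembl gene, the first from featureCounts with gene lengths, on GRCm38 (mm10). The second lists fewer genes, with Mylip among those not in it. The aligner and the strand setting of the counting are not given in the sources used here, and 5 of the 29 genes share more than 10% of their exonic bases with another gene.

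From the counts, edgeR 4.0.16 in R 4.3.3 was run within each batch on the 3 groups together (TMM factors, filterByExpr, robust quasi-likelihood fits, adjusted p by Benjamini-Hochberg over all genes tested, threshold 0.05). The PDPN differences were compared in 1 fit of 24 libraries over genes of both tables. SE is the log2 fold change over the root of F. TPM used the deposited lengths. On simulated counts for CCR7-PDPN against CCR7, 97 of 100 genes changed by a log2 value of 0.5 and 100 of 100 changed by 1 were found, with 10 false calls among 13102 genes. Those counts had the same spread for every gene, below the common value of batch 1, and no library that stood apart. Only genes above a floor of mean reads were changed, so these rates are for cleaner data than the real libraries. Replicate pairs differed beyond sampling noise (chi-square per degree of freedom 2.07 to 22.5 in 36 pairs).

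The genes, the further lists and the comparisons were chosen with earlier results of these data known. All 29 genes are named. Per-library values are given, though not always in every group, for the genes with the 3 largest changes of each comparison. They are also given for some genes that went against the list, and other genes only where past a log2 fold change of 1 or the largest of their list. Alternatives were DESeq2 1.42.0, other scalings and filters, a replicate block, leaving out each library, fewer or more libraries in the fit, and subtracting the neighbour median.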

Additional observations from a re-analysis of the deposited data

Results flagged for a closer look

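In 10 of 168 groups of 4 libraries, 1 library lay far from the other 3, as the ratio of its gap to the whole range, where chance flags about 1 in 20 groups (8.4 here). In CCR7 replicate 1 this held for Acat2 (0.889), Mvd (0.883) and Lss (0.87). Srebf2 had it in CCR7 replicate 3 (0.895), X2 replicate 4 of batch 2 (0.838) and X2-PDPN replicate 2 (0.875). The others were Fdps in X2-PDPN replicate 2 (0.857), Fdft1 in CCR7-PDPN replicate 2 of batch 2 (0.886), Msmo1 in X2 replicate 4 of batch 1 (0.885) and Nr1h2 in X2-PDPN replicate 1 (0.857).

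Each background came from its own batch and sort, and these cannot be told apart. By the test of the difference itself, 40.8% of all 13690 genes passed in either direction. The PDPN difference was unlike between backgrounds for 16 of the 28 genes. It was larger, or less negative, with CCR7 for Mvk (0.338), Mvd (0.271), Tm7sf2 (0.348), Insig2 (0.324), Npc1 (0.479) and Npc2 (0.195). It was smaller with CCR7 for Hmgcs1 (-0.445), Pmvk (-0.24), Fdps (-0.257), Fdft1 (-0.235), Sqle (-0.397), Lss (-0.186), Sc5d (-0.205), Srebf1 (-0.131), Srebf2 (-0.29) and Stard4 (-0.39).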

How the results depend on the processing

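Counts of genes that rose, and their medians, kept their direction in every fit run, other than the median of the comparison between backgrounds, which ran from -0.085 to 0.0014 when libraries were left out. The count that fell in CCR7-PDPN against CCR7 was 0 by edgeR and 1 (Npc1) with DESeq2 and with all 24 libraries and a batch term, and 0 to 1 when a library was left out (1 without CCR7 replicate 1). The median of CCR7-PDPN against X2-PDPN, 0.096, was 0.077 with upper quartile factors and 0.091 to 0.11 with a library left out, and that of X2-PDPN against X2 ran from 0.70 to 0.77. With the neighbour median subtracted, signs of called differences turned for Fdft1 (0.043) and Scap (-0.19) in CCR7 against X2 and Scap in CCR7-PDPN against X2 (-0.031 and -0.0044). They also turned for Fdps (0.023) and Sqle (0.069) in CCR7-PDPN against X2-PDPN, and Npc2 in the comparison between backgrounds (-0.071). Signs of differences not past the test were not counted here. Under this subtraction, a further 105 of the 196 gene results moved by more than their standard error. Examples were Mvd in CCR7 against X2 (0.67) and in CCR7-PDPN against X2-PDPN (0.79), and the cause was not tested.

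Replicate numbers did not pair the libraries: deviations of same-numbered libraries within a batch correlated at -0.18 to 0.15, and in 8 of 24 cases a library correlated best with its own number. With the replicate number as a block, 24 genes rose in CCR7-PDPN against CCR7 and 22 in X2-PDPN against X2, as without it. Over all comparisons 194 gene results kept their call, Acat2 in CCR7 against X2 gained one (0.23) and Npc1 there lost its call (-0.27). RLE factors changed no call of the 196, and DESeq2 changed 3. Of the 29 genes, Mylip was too low to test, 5 of the 16 other sterol handling genes were not tested, and 1 population per derivative limits every p-value.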
